A study of Mus musculus with 3 samples.

Results

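Open chromatin was examined at 10 genes that mark endothelial cells, the cells that line blood vessels, in islets of Langerhans of WT mice and of mice that had lost Taf4 from beta cells. The members were Pecam1, Cdh5, Kdr, Flt1, Tek, Tie1, Sox17, Robo4, Egfl7 and Erg, 10 of the 22359 protein-coding genes annotated with a start. Every ATAC-seq peak that touched the body of a member or the 20 kb on either side was taken, which gave 33 of 60898 peaks in WT, 42 of 150354 in the 1 week list and 113 of 151725 in the 5 week list. ATAC-seq marks accessible DNA by the places where a transposase inserts sequencing adapters, and a peak is a stretch in which such insertions exceed the local background. Each group was 1 library of dissociated islet cells: wild type, Taf4 KO 1 week and Taf4 KO 5 weeks after the gene had been inactivated, all with the strain written as C5LBl6. According to the study, floxed Taf4 alleles were removed in adult mice by a tamoxifen-inducible Cre recombinase under an insulin promoter. The study's control animals carried the Cre with intact Taf4 and also received tamoxifen, though the WT label does not state this for the library used here. Since the Cre is driven in beta cells, endothelial cells were not its target. The numbers of animals behind these libraries were not given in the sources used here. With no replicates, every difference below is a difference between 3 libraries, and no p-value was computed.

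Islets are among the most densely vascularised tissues, and their capillaries are lined by a thin, fenestrated endothelium that carries glucose to beta cells and hormones away from them. Endothelial identity rests on ETS factors such as Erg and on SoxF factors such as Sox17, which act on genes for vascular growth factor receptors and junction proteins. Kdr and Flt1 encode receptors for vascular endothelial growth factors, Tek encodes the angiopoietin receptor, and Tie1 encodes its partner. Cdh5 (VE-cadherin) and Pecam1 join neighbouring endothelial cells, Robo4 is a guidance-type receptor of vessels, and Egfl7 is a secreted matrix protein. These cells are a minority in islet preparations. In a library of mixed cells, fewer endothelial cells and less accessible chromatin per endothelial cell cannot be told apart.

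The local background, which stands in for depth here, differed between the libraries. As recovered from the fold and p of the peaks, it had a floor of 3.66 reads for WT, 6.45 for 1 week and 9.38 for 5 weeks, or 1.76 and 2.57 times WT. The islet label was checked by promoter peaks, which were present at 8 of 8 beta cell genes in WT and 7 of 8 in each Taf4 KO list, the exception in both being Slc2a2. This check is weak, because promoter peaks are common. Their share among all protein-coding genes was 59% for WT, 55.9% for the 1 week list and 65.6% for the 5 week list. In the same order, acinar markers had 1, 0 and 2 of 6 promoters called, duct markers 2, 3 and 3 of 5, and immune markers 0, 2 and 2 of 8.

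Promoters of the endothelial genes were called more often in the Taf4 KO lists as deposited, but not after these lists were scaled down to the WT background. A promoter peak, meaning any overlap with the stretch from 1000 bp before to 100 bp after an annotated start, was present at 3 of 10 members in WT, where 59% of all protein-coding genes had one. At 1 week it was present at 5 of 10 members, against 55.9% of all genes, and at 5 weeks at 8 of 10, against 65.6%. Members were thus below the background in the first 2 lists and above it in the last. Kdr was the single member called in all 3 lists. Of the 7 members without a promoter peak in WT, 4 had one at 1 week and 5 at 5 weeks, while 13.3% and 18.9% of all genes without a WT peak did. The 4 found at both times were Tek, Tie1, Sox17 and Robo4, against 8.28% of all such genes, and both counts are set against the same WT library. Of the 3 members called in WT, Flt1 and Egfl7 had no peak at 1 week, where 14.5% of all WT-called genes had none, and both were called at 5 weeks, where 1.89% had none. After scaling to the WT background, 3, 1 and 1 members were left with a promoter peak: Kdr, Flt1 and Egfl7 in WT, Kdr at 1 week and Egfl7 at 5 weeks. Of all genes, 59.02%, 49.12% and 57.06% were called under that setting, against 65.65% at 5 weeks in the deposited list, while the member count at 5 weeks went from 8 to 1. With a -log10 q of at least 5, none of the 3 lists held a member promoter peak, whereas 48.65%, 33.5% and 54.43% of all genes kept one.

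These promoter peaks were weak beside all promoter peaks, though the comparison was not matched for the CpG content given below. The strength of a peak is given here as the percentile of its -log10 q, the evidence over local background, within its own list. The median percentile of member promoter peaks was 4.77 in WT (3 peaks), 39.7 at 1 week (5 peaks) and 48.5 at 5 weeks (10 peaks). All promoter peaks of the same lists had medians of 82.7, 86.6 and 88.1. The highest member percentile was 66.6, reached by Egfl7 at 5 weeks, so no member promoter peak reached the median of all promoter peaks in its list. Their median fold over background was 2.51, 2.29 and 2.20, against 4.14, 3.26 and 3.54 for all promoter peaks. Width did not set them apart in the same way, with medians of 1026, 752 and 1035 bp against 985, 858 and 1050 bp.

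**Figure D1:**
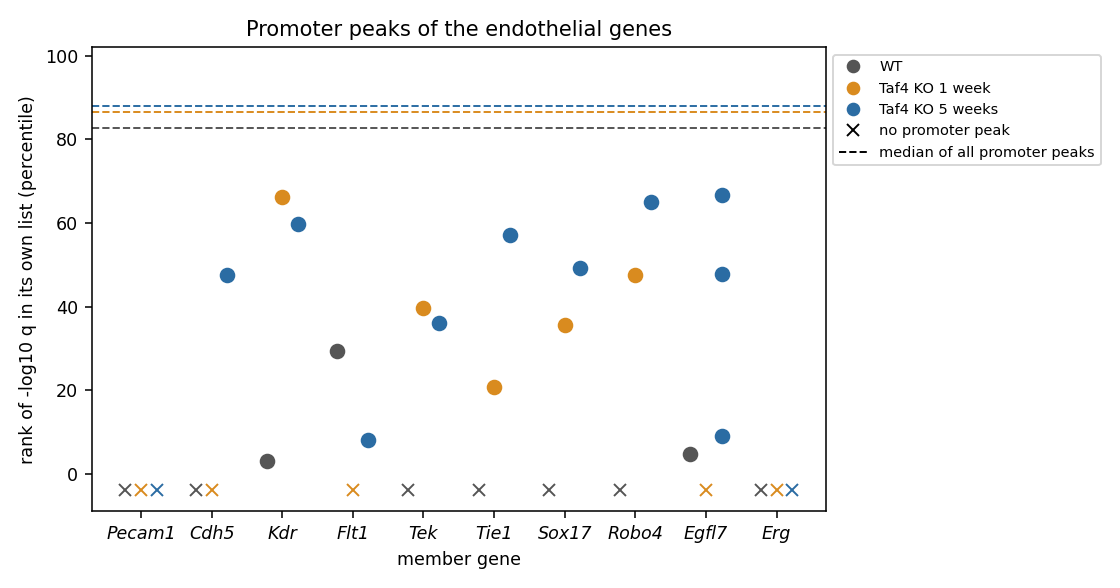
Within-list percentile of -log10 q (vertical axis) of each promoter peak of the 10 member genes (horizontal axis) in WT, Taf4 KO 1 week and Taf4 KO 5 weeks, with 1 library per group. Crosses mark members without a promoter peak, and dashed lines the median of all promoter peaks of each list, at 82.7, 86.6 and 88.1, above every member peak.

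The promoters were read from mm9, the build of the peak files, and Flt1 and Kdr are shown beside 4 members called only in the Taf4 KO lists, because they differ in CpG content. Each runs 5′ to 3′ along the gene from 250 bases before the start of the lowest-numbered transcript to 50 bases from it, and capitals mark CpG dinucleotides.
Flt1 promoter, chr5:148537538-148537837, minus strand: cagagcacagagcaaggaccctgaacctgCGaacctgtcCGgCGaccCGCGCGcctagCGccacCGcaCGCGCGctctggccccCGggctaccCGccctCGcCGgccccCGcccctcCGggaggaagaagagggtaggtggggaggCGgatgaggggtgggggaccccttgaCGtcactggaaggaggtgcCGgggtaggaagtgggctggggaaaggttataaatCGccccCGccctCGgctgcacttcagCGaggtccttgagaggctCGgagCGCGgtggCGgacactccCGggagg
Kdr promoter, chr5:76374434-76374733, minus strand: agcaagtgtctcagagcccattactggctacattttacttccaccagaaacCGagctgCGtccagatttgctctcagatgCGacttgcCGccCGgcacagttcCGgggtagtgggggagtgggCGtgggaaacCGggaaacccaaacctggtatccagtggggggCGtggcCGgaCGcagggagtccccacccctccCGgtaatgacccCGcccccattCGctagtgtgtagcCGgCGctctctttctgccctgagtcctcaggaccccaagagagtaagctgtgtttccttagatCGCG
Tek promoter, chr4:94405730-94406029, plus strand: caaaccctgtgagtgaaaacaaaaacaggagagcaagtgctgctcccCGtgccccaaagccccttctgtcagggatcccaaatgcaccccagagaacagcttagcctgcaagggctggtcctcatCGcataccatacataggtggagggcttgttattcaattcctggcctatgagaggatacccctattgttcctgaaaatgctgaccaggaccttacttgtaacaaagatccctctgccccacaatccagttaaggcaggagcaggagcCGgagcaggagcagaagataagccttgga
Tie1 promoter, chr4:118162617-118162916, minus strand: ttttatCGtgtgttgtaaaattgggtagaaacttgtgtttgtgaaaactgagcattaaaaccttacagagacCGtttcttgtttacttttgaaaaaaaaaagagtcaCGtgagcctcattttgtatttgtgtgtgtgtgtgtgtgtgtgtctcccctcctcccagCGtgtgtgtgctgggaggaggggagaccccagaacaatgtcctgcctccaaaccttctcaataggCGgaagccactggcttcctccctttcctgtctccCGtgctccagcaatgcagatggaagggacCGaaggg
Sox17 promoter, chr1:4486445-4486744, minus strand: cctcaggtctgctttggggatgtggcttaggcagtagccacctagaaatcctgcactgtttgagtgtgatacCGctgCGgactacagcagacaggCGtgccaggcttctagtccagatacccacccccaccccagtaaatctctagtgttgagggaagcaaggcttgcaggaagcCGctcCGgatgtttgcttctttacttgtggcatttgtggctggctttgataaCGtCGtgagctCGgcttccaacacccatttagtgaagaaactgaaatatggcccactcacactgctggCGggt
Robo4 promoter, chr9:37209232-37209531, plus strand: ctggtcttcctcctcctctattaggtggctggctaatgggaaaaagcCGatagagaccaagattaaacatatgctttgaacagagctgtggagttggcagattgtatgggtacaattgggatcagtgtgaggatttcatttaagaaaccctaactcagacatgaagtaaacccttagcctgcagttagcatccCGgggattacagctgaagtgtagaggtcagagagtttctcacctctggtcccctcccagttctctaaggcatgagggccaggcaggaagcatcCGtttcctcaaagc

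Flt1 held 29 CpG and Kdr 18 in these 300 bases, whereas the other 8 members held between 2 and 9, and the median of all promoters was 12. Among all genes with 9 or fewer CpG, the promoter was called for 22.5%, 26.5% and 32.2% in the 3 lists in that order, and of the 8 members in that class 1, 4 and 6 were called. Among genes with 10 or more, these shares were 88.8%, 79.95% and 92.9%, and Flt1 and Kdr were called in WT and at 5 weeks, with Kdr alone at 1 week. Of genes of the CpG-poor class without a WT peak, 11.5% were called at 1 week and 14.5% at 5 weeks. The CpG were counted at the start of the lowest-numbered transcript only, whereas a call could lie at any annotated start of the gene.

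Letters of factors known in endothelium were searched on both strands of the same 300 bases. The ETS letters CNGGAAG were found at 5 of 10 members (Egfl7, Erg, Flt1, Robo4 and Sox17), and in 32.7% of all promoters. The SOX letters AACAAT were found at 4 of 10 (Cdh5, Erg, Tek and Tie1), and in 9.87% of all promoters. These 4 members are all of the CpG-poor class, and the shares of all promoters were not matched for CpG content. The GATA letters AGATAA were found at Tek and Erg, and in 10.2% of all promoters. In Tie1 the SOX letters lay from position -53 to -48, counted with the start as 0, and in Cdh5 from -67 to -62. In Sox17 the ETS letters lay from -83 to -77. A CTCF motif was found at 0 of 10 members and in 2.56% of all promoters. These matches describe the sequence only, and no overlap between motifs was removed.

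Among the vascular growth factor receptors, Kdr (ENSMUSG00000062960) occupies 76328852 to 76374483 of chromosome 5, minus strand. Its promoter peak ran from 76373855 to 76374974 in WT, at a -log10 q of 1.37 and the 3.15 percentile, its fold being 2.51. At 1 week it ran from 76373831 to 76374793 with a fold of 2.62, at the 66.1 percentile, and at 5 weeks from 76373747 to 76375366 with a fold of 2.32, at the 59.7 percentile. All 3 peaks covered the transcription start. WT was likewise lowest at a peak in an exon at the far end of Kdr, which stood at the 5.63 percentile in WT, 69.1 at 1 week and 70.5 at 5 weeks. The folds of the promoter peaks lay between 2.32 and 2.62 and gave another order than the percentiles, which are taken within each list.

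Flt1 (ENSMUSG00000029648), on the minus strand of the same chromosome from 148373180 to 148537587, had a promoter peak of 1026 bp in WT, at the 29.3 percentile. None was called at 1 week. At 5 weeks it was 2151 bp wide but stood at the 7.97 percentile with a fold of 1.88. The whole Flt1 window held 3 WT peaks, a single 1 week peak and 20 peaks of the 5 week list, and 18 of its regions were found at 5 weeks only. The strongest lay in an exon near the 3′ end, from 148375788 to 148376169 in WT, and was present in every list at the 59.6, 70.9 and 83.3 percentile.

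The angiopoietin receptor Tek (ENSMUSG00000006386), on the plus strand of chromosome 4 from 94405980 to 94541667, held the strongest member peak of the WT list. This peak lay in an intron, with its middle 13161 bp after the nearest annotated start, from 94419089 to 94419651 in WT. It had a fold of 6.13 at the 88.5 percentile in WT, 4.27 at the 96.8 percentile at 1 week and 3.87 at the 91.3 percentile at 5 weeks. It was present under every one of 5 stricter list settings in all 3 lists. Around it the lists differed: the Tek window held 1 WT peak but 14 peaks in each Taf4 KO list, and of its 21 regions 6 were shared by both Taf4 KO lists, 7 were in the 1 week list only and 7 in the 5 week list only. The Tek promoter peak, called in both Taf4 KO lists at the 39.7 and 36.1 percentile, was held under none of the stricter settings. The intronic element is shown because it was the strongest member region of the WT list, as 300 bases around the middle of the stretch common to the 3 peaks, again on mm9 with CpG in capitals.
Tek distal, chr4:94419178-94419477, plus strand: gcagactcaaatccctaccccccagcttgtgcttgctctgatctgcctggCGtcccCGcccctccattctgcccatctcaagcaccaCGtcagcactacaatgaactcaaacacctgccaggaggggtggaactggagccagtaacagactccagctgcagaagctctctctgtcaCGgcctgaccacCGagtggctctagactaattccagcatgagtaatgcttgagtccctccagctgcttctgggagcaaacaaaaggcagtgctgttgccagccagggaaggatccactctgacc
It held 5 CpG and none of the 4 motifs searched.

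Tie1 (ENSMUSG00000033191), which spans 118143796 to 118162666 of chromosome 4, minus strand, had no peak in its window in WT, as was the case for 18.4% of all genes. At 1 week its only peak covered the start, from 118162263 to 118162726, at the 20.7 percentile. At 5 weeks the promoter peak ran from 118162100 to 118162714 at the 57.1 percentile, and 3 further peaks were called. The closest peak outside any window lay near Tie1, 21084 bp from the gene in WT, at the 20.4 percentile, with counterparts in both other lists. The peak furthest out but still inside a window lay 19087 bp from Sox17 in the 5 week list, at the 54.9 percentile.

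The junction genes differed from each other at 1 week. Pecam1 (ENSMUSG00000020717, chromosome 11, minus strand, 106515531 to 106611942) had no promoter peak in any list at its 6 annotated starts, the nearest peak edge lying 4997 bp from a start in WT. Its window held 9 WT peaks against 2 at 1 week and 11 at 5 weeks, and 9 of the last were held under all 5 stricter list settings. The intronic peak from 106536040 to 106536464 in WT stood at the 88.1 percentile, and its counterparts stood at 83.4 at 1 week and 92.8 at 5 weeks. A second peak common to the lists, also intronic, stood at 70.5, 79.4 and 93.9. Another, from 106520915 to 106521266 in WT, stood at 61.7 and at 91.04 at 5 weeks and was not called at 1 week. The upstream peak from 106616939 to 106617361, inside the neighbouring gene Gm885, likewise stood at 60.1 in WT and 93.1 at 5 weeks, with none at 1 week. Of the 12 regions of Pecam1, 6 were held by WT and 5 weeks but not 1 week. After the Taf4 KO lists were scaled to the WT background, Pecam1 kept 2 peaks of the 1 week list and 10 of the 5 week list, against 9 in WT.

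Cdh5 (ENSMUSG00000031871, chromosome 8, plus strand, 106625525 to 106668402) held 2 peaks in WT, 9 at 1 week and 13 at 5 weeks. Its promoter peak was called at 5 weeks alone, from 106625315 to 106625590 over the start, with a fold of 1.85 at the 47.6 percentile. A peak 3′ of the gene was the only one present in all lists, at the 37.9, 73.8 and 47.6 percentile. After scaling to the WT background, 2, 1 and 0 peaks were left in its window, and none of the additional Cdh5 peaks was held under that setting.

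**Figure D2:**
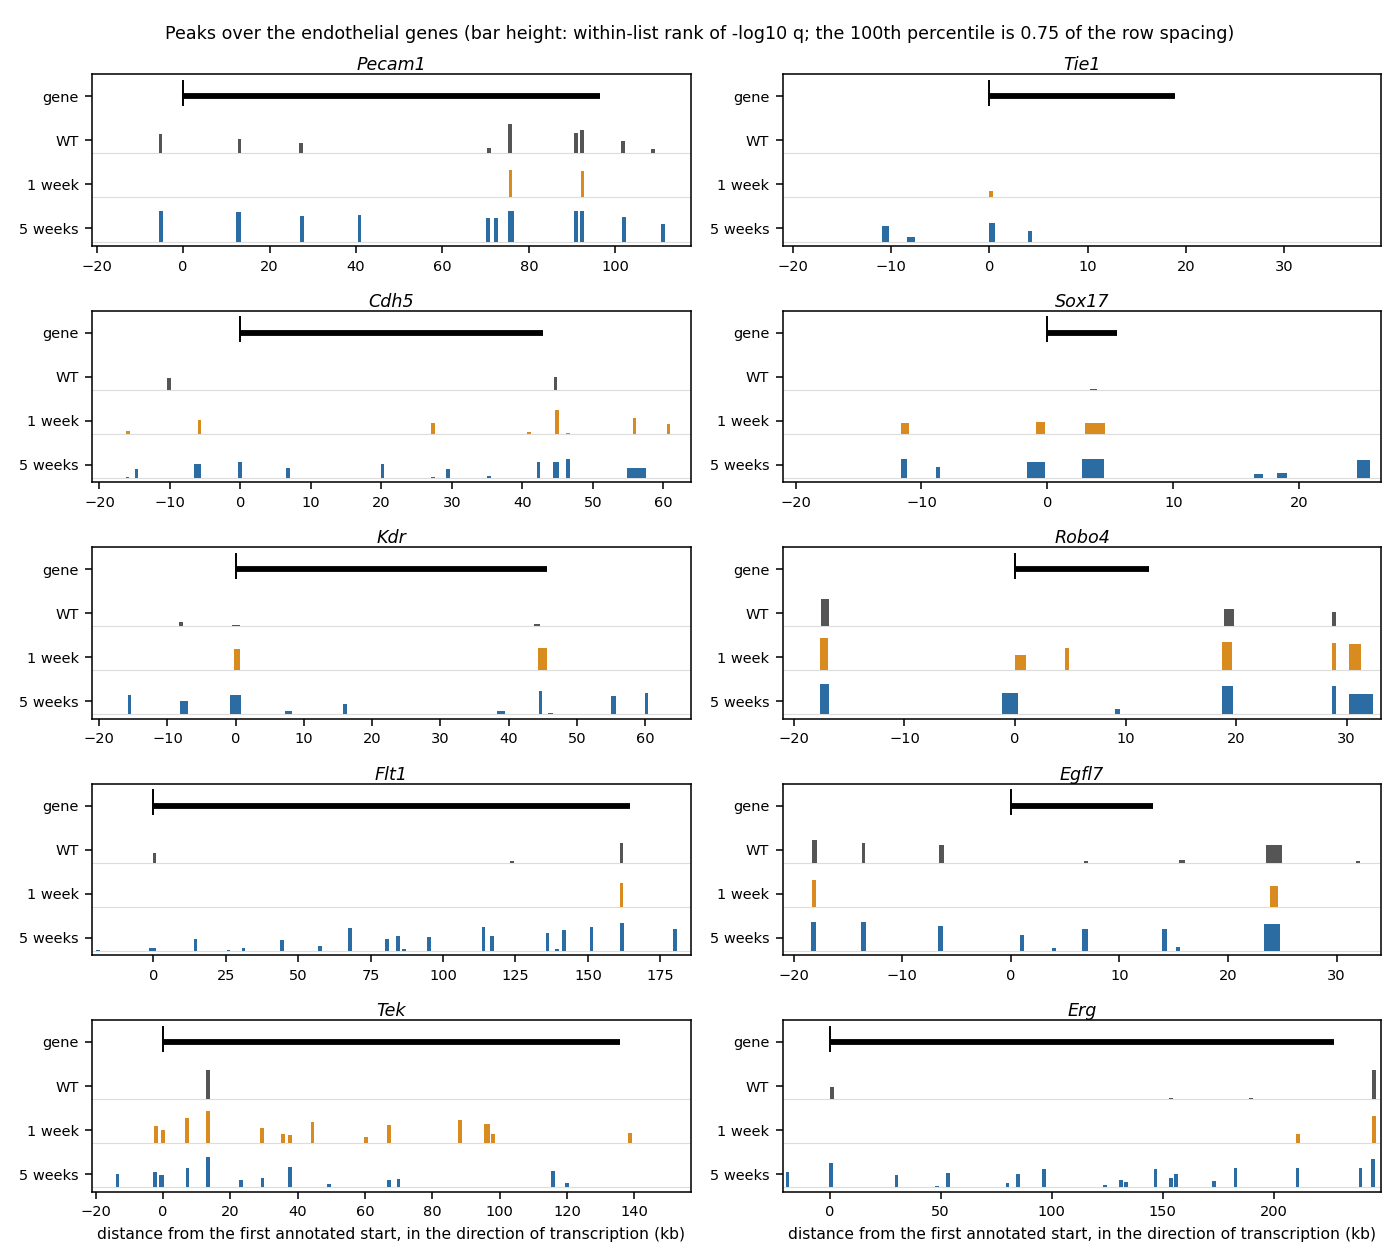
Peaks over the 10 member genes, plotted by distance from the first annotated start in the direction of transcription (kb), in 1 row per library, with the gene as a black bar. Bar height is the within-list percentile of -log10 q, and narrow peaks are drawn wider than they are so that they can be seen; Tek shows the intronic peak common to all rows and Pecam1 the distal peaks of WT that recur at 5 weeks.

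The Robo4 locus (ENSMUSG00000032125, chromosome 9, plus strand, 37209482 to 37221608) held 3 peaks in WT, 6 at 1 week and 6 at 5 weeks. All 3 WT peaks recurred in both Taf4 KO lists, and all lay within neighbouring genes. The strongest, from 37191894 to 37192619 within Hepacam, stood at the 83.9, 97.98 and 92.1 percentile, and the 1 week value was the highest of any member peak in that list. The other two lay in Robo3, and the peak at a Robo3 promoter stood at 44.8, 84.04 and 86.97. A further peak at a Robo3 promoter and the peak at the Robo4 start were in both Taf4 KO lists and not in WT. At the Robo4 start the 1 week peak ran from 37209452 to 37210511 at the 47.5 percentile and the 5 week peak from 37208268 to 37209770 at the 64.9 percentile. Both covered the start, the former reaching mainly downstream of it and the latter mainly upstream.

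Egfl7 (ENSMUSG00000026921, chromosome 2, plus strand, 26435534 to 26448640) has 12 annotated starts. The WT call rested on a weak peak from 26442299 to 26442604 near an internal start, 90 bp from it, at the 4.77 percentile. At 5 weeks 3 promoter peaks were called, at the 47.8, 8.97 and 66.6 percentile, of which the last, from 26442111 to 26442665, overlapped the WT peak. No Egfl7 promoter peak was called at 1 week, where the window held 2 peaks against 7 in WT and 9 at 5 weeks. Those 2 were the upstream peak from 26417292 to 26417547 and a peak at the promoter of Agpat2, and both were present in every list.

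Of the transcription factors, Sox17 (ENSMUSG00000025902, chromosome 1, minus strand, 4481009 to 4486494) had peaks upstream of its start in both Taf4 KO lists. They began 184 bp from the start at 1 week and 188 bp at 5 weeks, with widths of 714 and 1455 bp, at the 35.6 and 49.2 percentile. Neither covered the start. An intragenic Sox17 peak was present in every list, at the 2.36, 32.1 and 56.8 percentile. Erg (ENSMUSG00000040732, chromosome 16, minus strand, 95580776 to 95808200) had no promoter peak by the definition used, but a peak inside the gene came close. At 5 weeks that peak ran from 95806771 to 95808095, its nearer edge lying 105 bp inside the gene from the most upstream start, at the 73.2 percentile and under all 5 stricter settings. In WT a narrower peak from 95807058 to 95807347 lay 853 bp from the start at the 36.95 percentile, and none was called at 1 week. The Erg window held 4 WT peaks against 2 at 1 week and 19 at 5 weeks, and 15 of its regions were in the 5 week list only. A downstream peak from 95562580 to 95563385 in WT was common to all lists, at the 88.02, 82.8 and 85.4 percentile.

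Counted over all windows, 1.16 Mb in total, the density at the members was 28.4 peaks per Mb for WT, 36.1 for 1 week and 97.2 for 5 weeks. Over the windows of all protein-coding genes it was 34.1, 51.0 and 61.8. The 5 week count was therefore 3.42 times WT at the members and 1.81 times WT over all genes, and the 1 week count 1.27 times WT at the members and 1.495 times over all genes. In lists cut to the same number of peaks, the members held 33 peaks in WT, 18 at 1 week and 33 at 5 weeks, or 0.545 and 1 times WT, against 0.792 and 0.958 times over all genes. Distal peaks, those at no promoter, numbered 28, 34 and 100, of which 12, 16 and 58 were intronic. Their median percentile was 38.6, 51.4 and 44.05, close to the 41.9, 46.7 and 45.9 of all distal peaks, whereas the promoter peaks of the members stood well below those of all genes.

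**Figure D3:**
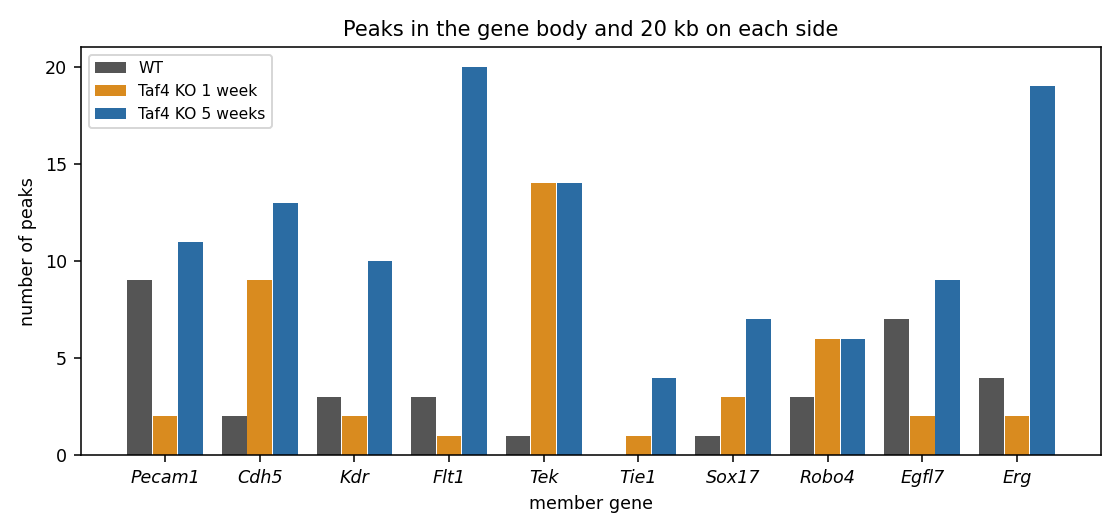
Number of peaks (vertical axis) in the gene body and 20 kb on each side of each member gene (horizontal axis), by library, with 1 library per group. The 5 week bar is above the WT bar for all 10 genes, and the 1 week bar is below it for Pecam1, Kdr, Flt1, Egfl7 and Erg.

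All 10 members held more window peaks at 5 weeks than in WT, as did 54% of all genes. The shares of all genes were not matched for window length. Among the members this length ran from 45.5 kb at Sox17 to 267 kb at Erg. After scaling to the WT background, Pecam1 and Flt1 alone held more (15.08% of all genes did), Cdh5, Kdr, Sox17, Egfl7 and Erg held fewer (39.02% did), and the other 3 were equal. In lists of equal number 4 held more, Pecam1, Flt1, Tek and Robo4, against 22.93% of all genes, and the same 5 held fewer. At 1 week in the deposited lists 5 held more, against 33.5% of all genes, and 5 held fewer, against 43%. The 1 week direction differed with the base composition of the surroundings over all genes, and the members overlapped in it. Those with more peaks ranged from 40.1% to 46.9% GC in the 1 Mb around their start and those with fewer from 43.3% to 48.9%. Sox17 and Tek, with 40.1% and 40.9%, held more peaks at 1 week, and Egfl7, with the highest value of 48.9%, held fewer. Over all genes in 5 groups by this GC content, 77.9% held more peaks at 1 week than in WT in the least GC-rich group and 3.18% in the most GC-rich. Cdh5, at 44.8%, and Tie1, at 46.9%, had more peaks at 1 week, whereas 25.9% and 10.8% of the genes in their GC groups did. The part of GC content in these counts was not tested.

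**Figure D4:**
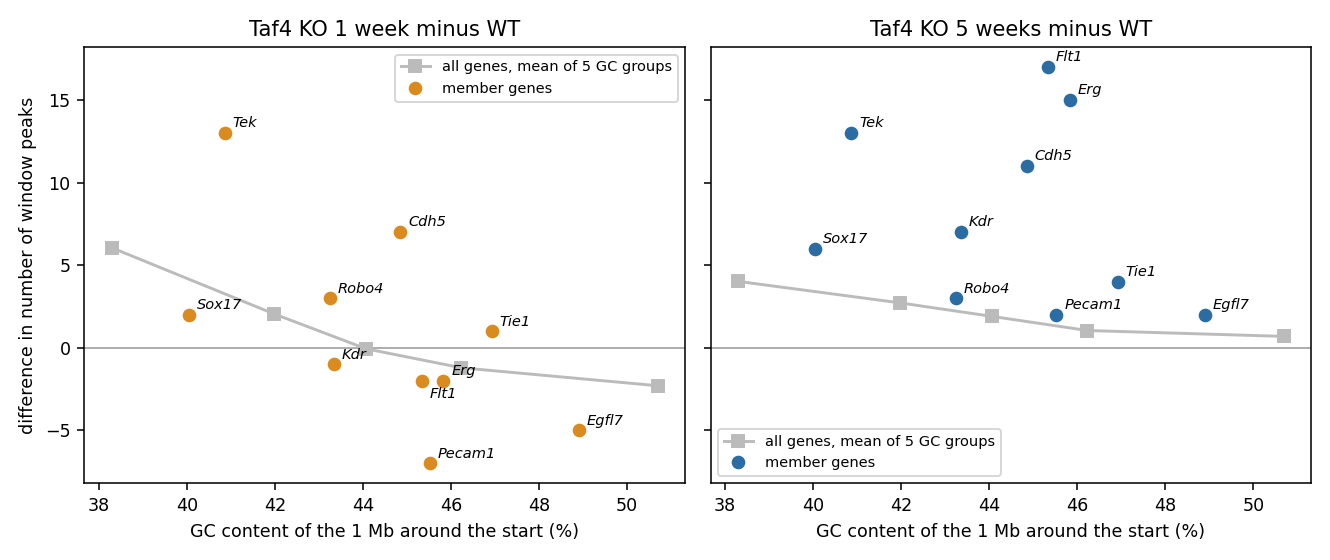
Difference in the number of window peaks between a Taf4 KO list and WT (vertical axis) against the GC content of the 1 Mb around the start (horizontal axis, %), at 1 week (left) and 5 weeks (right). Circles are the 10 members and squares the means of all genes in 5 GC groups; at 1 week Egfl7 and Pecam1 lie lowest and Tek highest, and at 5 weeks all 10 members lie above 0.

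The WT peaks of the members were found again more often at 5 weeks than at 1 week. Of the 33 WT peaks, 14 were overlapped by a 1 week peak (42.4%, Wilson 95% interval 27.2 to 59.2) and 28 by a 5 week peak (84.8%, 69.1 to 93.3). Of all WT peaks, 61.9% and 79.5% were. The intervals cover the counting of peaks only. At 1 week the value for all peaks lay above the members' interval, and at 5 weeks within it. The 2 sets differ in kind, since 28 of the 33 member peaks were distal, against 47987 of all 60898 WT peaks. The shares were not compared among distal peaks alone. The interval also treats the 33 peaks as independent, though 9 lay at Pecam1 and 7 at Egfl7. With a reciprocal overlap of 50% the shares were 36.4% (22.2 to 53.4) at 1 week and 45.5% (29.8 to 62.0) at 5 weeks. Both intervals held the value of all WT peaks, which was 44.9% at 1 week and 61.2% at 5 weeks. At 5 weeks the members' share was then below that of all WT peaks rather than above it. Among the matched pairs the Taf4 KO peak ranked higher in its list than the WT peak in 12 of 14 pairs at 1 week and 26 of 28 at 5 weeks, with a median difference of 13.1 and 27.5 percentile points. For all matched WT peaks the Taf4 KO peak ranked higher in 80.3% and 89.3% of pairs, with median differences of 15.8 and 18.3. The Taf4 KO lists are longer than the WT list. The fold went the other way, being higher than in WT in 3 of 14 pairs at 1 week and 12 of 28 at 5 weeks. Over all pairs it was higher in 31.1% and 33.8%. The median differences in fold were -0.523 and -0.181 at the members, against -0.370 and -0.272 for all pairs. The 5 week peak was wider than its WT counterpart in 20 of 28 pairs, against 66.4% of all pairs. The median ratio of widths was 1.27 at the members, against 1.12 for all pairs.

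When overlapping peaks of the 3 lists were merged, the windows held 128 regions. Of these, 67 (52.3%) were in the 5 week list only, against 25.8% of the regions in the windows of all genes. Regions in all 3 lists made up 10.9%, against 24.1%, and regions in the 1 week list only 7.81%, against 20.2%. Flt1 with 18 and Erg with 15 contributed the largest counts of regions found at 5 weeks only, and these genes have the longest windows. All these shares are of the deposited lists, and the merging was not repeated under the stricter settings. After scaling to the WT background, 29 of the 113 window peaks of the 5 week list were left, with 5 at Flt1 and 2 at Erg. The 14 regions in all lists were spread over 9 members, with 3 at Robo4, 2 each at Pecam1, Kdr and Egfl7, and none at Tie1.

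**Figure D5:**
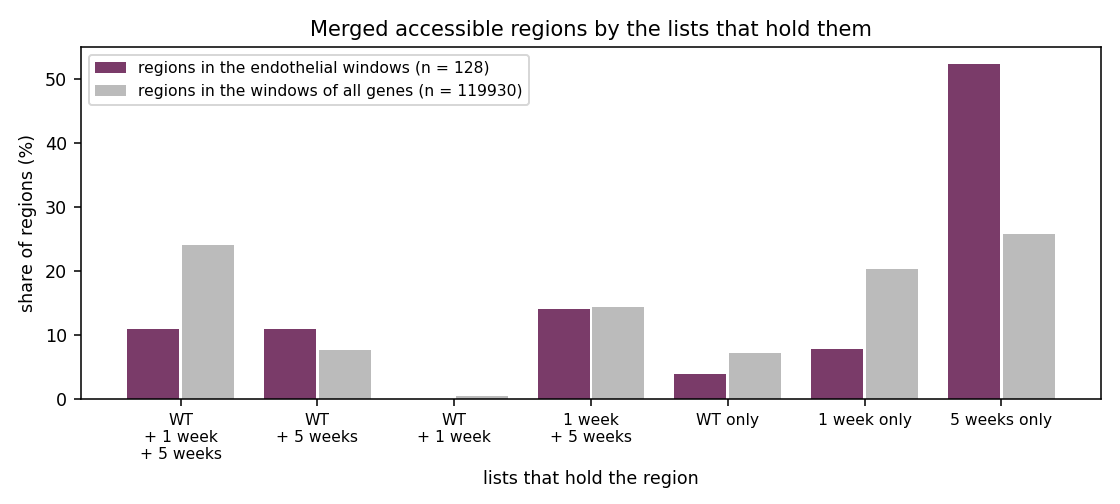
Share of merged regions (vertical axis, %) by the lists that hold them (horizontal axis), for the 128 regions in the windows of the members and for the 119930 regions in the windows of all genes. In the deposited lists, which are not scaled for background, regions found at 5 weeks only make up 52.3% of the former and 25.8% of the latter.

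In the central 300 bases of the distal peaks, the ETS letters were found in 7 of 28 member peaks in WT (25%, against 26.6% of all distal peaks), in 14 of 34 at 1 week (41.2% against 21.6%) and in 31 of 100 at 5 weeks (31% against 24.2%). The SOX letters were found in 1, 6 and 10 of these peaks, or 3.57%, 17.6% and 10%, below the 12.5%, 18.8% and 15.8% of all distal peaks. The GATA letters were found in 5, 2 and 13, or 17.9%, 5.88% and 13%, against 13.1%, 16.5% and 14.8%. The CTCF motif was found in 1, 2 and 4, or 3.57%, 5.88% and 4%, against 5.7%, 2.2% and 3.9%. Peaks of the same region in several lists share their sequence, so these counts are not independent.

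Other endothelial surface genes and transcription factors were called below the share of all genes in WT and at 1 week and above it at 5 weeks. Of these 35 genes, promoter peaks marked 15 for WT, 17 for 1 week and 26 for 5 weeks, or 42.9%, 48.6% and 74.3%, against 59%, 55.9% and 65.6% of all genes. Surface genes were called at 7, 7 and 13 of 20 promoters, transcription factors at 8, 10 and 13 of 15, and ligands of the endothelial receptors, some of which other islet cells make, at 8, 9 and 11 of 12. The genes named here and in the next paragraph were taken first for calls that differed between the lists. Among the surface genes, the factors and the ligands alike, some unnamed genes were called in every list and some in none. The same held for the pericyte, stellate and fibroblast markers. Cldn5, which encodes a tight junction protein, was called in WT only, at the 57.95 percentile. Clec14a and Eng, surface proteins of endothelium, were called at 5 weeks only, at the 69.3 and 49.6 percentile, and the vascular phosphatase gene Ptprb at both times, at 49.8 and 67.6. Among the factors, Gata2, Epas1 and Sox7 were called at both times and not in WT, Gata2 at the 83.5 and 69.9 percentile, and the ETS factor gene Fli1 at 5 weeks at 62.1. Of the ligands, Angpt1 and Angpt2, which bind the Tek receptor, were called in both Taf4 KO lists and not in WT, at 82.04 and 83.97 at 1 week and 69.2 and 75.4 at 5 weeks. Vegfb, a ligand of Flt1, was called in WT at the 20.7 percentile and at 5 weeks at 59.4, but not at 1 week.

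Markers of pericytes, stellate cells and fibroblasts were marked at 1, 3 and 6 of 10 promoters in the WT, 1 week and 5 week lists, each below the 59%, 55.9% and 65.6% of all genes, with Des and Col1a2 called at 5 weeks only. Immune genes were called at 0, 2 and 2 of 8 promoters, acinar genes at 1, 0 and 2 of 6, and duct genes at 2, 3 and 3 of 5, all below those shares except the duct genes at 1 week. The part of cell composition, and of the higher background floor of the 5 week library, in the endothelial counts was not tested.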

How the data were processed

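ATAC-seq peak lists of 3 islet libraries were analysed, grouped by the genotype and time labels. Per the submitters' processing notes, the authors used bcl2fastq 2.17.1.14, Bowtie 1.0.0 on mm9, keeping reads with a unique place, and MACS2 2.1.1 for broad peaks, with 1 list per library. The sources do not state whether a control was used, duplicates were removed or reads were shifted. The deposited values are a ratio (fold over local background) and, on the -log10 scale, a p-value and a q-value, given as the caller's mean over the peak. The q-values were compared as percentiles within a list, and folds were given beside them. Depth is not given in peak lists, and the background floor stands in for it. Fold and p were solved together for background and pileup as if both held at a single position. The 1st percentile of the background was taken. Because the deposited values are means over a peak, the floor and the scaling that uses it are approximate.

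Mitochondrial peaks, 2 in each list, were not used. Genes and sequences came from NCBIM37, which is mm9, and its GENCODE annotation. All peaks lay within its chromosome lengths but 1, on X in WT. Overlap was counted from 1 bp, in Python 3.11.15 with pandas 2.3.3. Lists were also filtered at a -log10 q of 3 or 5, cut to equal number or covered length, or scaled: background and pileup were multiplied down to the WT floor, and peaks kept whose new p reached the lowest of the WT list. Intervals are Wilson 95% intervals for counting error only. Overlaps and promoter calls were tested on simulated data. The floor was recovered from simulated peaks built with the same formula and without averaging over a peak. That recovery therefore cannot show how well the floor holds for the deposited values. Adgre1 and Spi1 were matched by older symbols. Other genes were named by a rule: up to 4 per list, those whose call differed between lists first, then by the highest -log10 q. Some distal peaks beyond the strongest of each member were chosen after their values were seen. The members, lists and motifs were chosen with earlier results of these data known.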

Additional observations from a re-analysis of the deposited data

Results flagged for a closer look

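In the deposited lists the number of window peaks of 5 members lay below WT at 1 week and above it at 5 weeks. The differences from WT were -7 and 2 for Pecam1, -1 and 7 for Kdr, -2 and 17 for Flt1, -5 and 2 for Egfl7, and -2 and 15 for Erg. This opposite direction was found at 16.1% of all genes. Summed over these 5 members, the counts were 26 in WT, 9 at 1 week and 69 at 5 weeks. In lists of equal number, and also after scaling to the WT background, Pecam1 and Flt1 alone had this opposite direction, which 7.558% and 4.58% of all genes had, and Kdr, Egfl7 and Erg lay below WT at both times. With equal covered length it was Pecam1 alone. Both differences use the same WT library, and with 1 library per group the difference between the times was not tested.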

How the results depend on the processing

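No result had a replicate, and the counts at the members moved with the list setting. The number of members with a called promoter (3, 5 and 8 for WT, 1 week and 5 weeks) became 0, 0 and 3 when -log10 q had to reach 3, and 0, 0 and 0 when it had to reach 5. The shares over all genes moved less, from 59.02%, 55.94% and 65.65%: 53.79%, 44.91% and 59.05% of all genes were called at 3 and 48.65%, 33.5% and 54.43% at 5. At 1 week the members called were 1 with lists of equal number, 1 with equal covered length and 1 after scaling, and at 5 weeks 2, 0 and 1, while WT stayed at 3 because its list set the size. All-gene shares at 1 week were 48.8%, 48.43% and 49.12% in that order and at 5 weeks 58.97%, 56.11% and 57.06%. Window peaks (33, 42 and 113) became 15, 13 and 34 under the former filter and 7, 3 and 21 under the latter. At 1 week they were 18 under each of equal number, equal covered length and scaling, and at 5 weeks 33, 24 and 29. The 5 week excess over WT was thus present under both q filters and absent in the lists made equal, and the 1 week count was below WT in all 5 stricter settings. Over the windows of all genes, the 5 week count was 1.607 and 1.698 times WT under the q filters, against 2.267 and 3 at the members. The 1 week count there was 1.057 and 0.9153 times WT under these filters, against 0.8667 and 0.4286. With equal number, equal covered length and scaling it was 0.7922, 0.7743 and 0.8092, against 0.5455 in each at the members. With 5 kb on each side of the genes WT had 20 peaks, against 30 at 1 week and 82 at 5 weeks. The share of WT peaks found at 1 week moved from 42.4% to 60% under the filter at 3, over 15 WT peaks, and to 28.6% at 5, over 7. The share found at 5 weeks moved from 84.8% to 100% at 3 and 100% at 5, to 63.6% with equal number, 60.6% with equal covered length and 63.6% after scaling, and to 45.5% with a reciprocal overlap of 50%. The wider promoter window of 2500 bp on each side added Erg in WT and at 5 weeks. The cause was not tested. No paired analysis was possible because each group has 1 library.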
